A study of Drosophila melanogaster with 8 samples.

Results

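Glial cells of the fly head are represented here by 10 genes, chosen by role with earlier results of these data known. They are the barrier genes moody, loco, Mdr65 and nrv2, the astrocyte genes alrm, CG1732 and Eaat1, and the broadly glial genes repo, Gs2 and drpr. All 10 were found among the 15240 genes of the deposited table, and all 10 passed the filter on low values, a mean of at least 1 RPKM (reads per kilobase of exon, corrected for library size). RNA came from whole heads, about 90 per sample, of Drosophila melanogaster adults that were 6 days old and had no social experience. The 4 groups were Canton-S flies (CantonS) raised at 19C, CantonS raised at 25C, Bully flies raised at 19C and Bully flies raised at 25C. Bully is a single hyper-aggressive line derived from Canton-S, so all groups share that background and a line difference is one between these lines. Each group had 2 libraries, called a and b as names only, and every group mean below has n = 2. No sex is given in the labels, and a whole head holds brain, eye, muscle, fat body and blood cells beside glia.

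The fly nervous system is sealed from the potassium-rich hemolymph by a sheet of glia whose outer layer is perineurial and whose inner, subperineurial layer is closed by septate junctions. Inside the brain, astrocyte-like glia take up glutamate and GABA at synapses, cortex glia wrap neuronal cell bodies, and ensheathing glia surround the neuropil and clear debris after injury. The homeodomain factor repo is the standard marker of nearly all of these cells. In whole-head RNA, fewer cells of a type and less RNA per cell cannot be told apart.

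Effective library sizes, read from the steps between low values, lay between 47.6 and 117.8 M reads. The least covered gene, loco, was still backed by at least 144 reads per kilobase in every library. CantonS 19C b stood apart from the others in neuronal transcripts: 7 matched neuronal markers summed to 82.4 RPKM there and to 110.1 to 137.3 RPKM in the other 7 libraries. CantonS 19C a, at 130.5 RPKM, was within the range of the others. Not every marker was low in CantonS 19C b: brp and Rdl lay within the range of the other libraries there. That library also had the highest RPKM sum over all genes, 225776 against 163600 to 193367 in the other 7. It thus differed in more than neuronal transcripts. The 10 glial genes summed to 379.8 and 410.3 RPKM in CantonS 19C and to between 443.6 and 502.9 RPKM in the other 6 libraries, with Gs2 as the largest term.

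Levels per length, in RPKM, ran from a metabolic enzyme down to a signalling regulator, with several neighbours not separated. The mean over 8 libraries was 254.7 RPKM for Gs2, a glutamine synthetase that turns glutamate into glutamine, and 75.4 RPKM for nrv2, a beta subunit of the sodium-potassium pump found in glia. Eaat1 (35.9 RPKM), a glutamate uptake transporter, CG1732 (32.7 RPKM), the glial GABA transporter also called Gat, and alrm (25.8 RPKM), a leucine-rich repeat protein whose promoter marks astrocyte-like glia, lay close together. Eaat1 was above CG1732 in 4 of 8 libraries. CG1732 was above alrm in 6 of 8, and the exceptions were both CantonS 19C libraries, so this order differed by group. The engulfment receptor drpr followed at 12.6 RPKM. The barrier receptor moody (7.92 RPKM) exceeded repo (5.83 RPKM) in 6 of 8 libraries and was below it in both CantonS 19C libraries, so their ranges overlapped. The ranges of repo and of the ABC transporter Mdr65 (4.78 RPKM) overlapped as well, although repo was above Mdr65 in 8 of 8 libraries. Lowest was loco at 3.20 RPKM. Variation across libraries ranged from 1.19-fold between the lowest and the highest library in repo to 2.16-fold in CG1732.

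**Figure D1:**
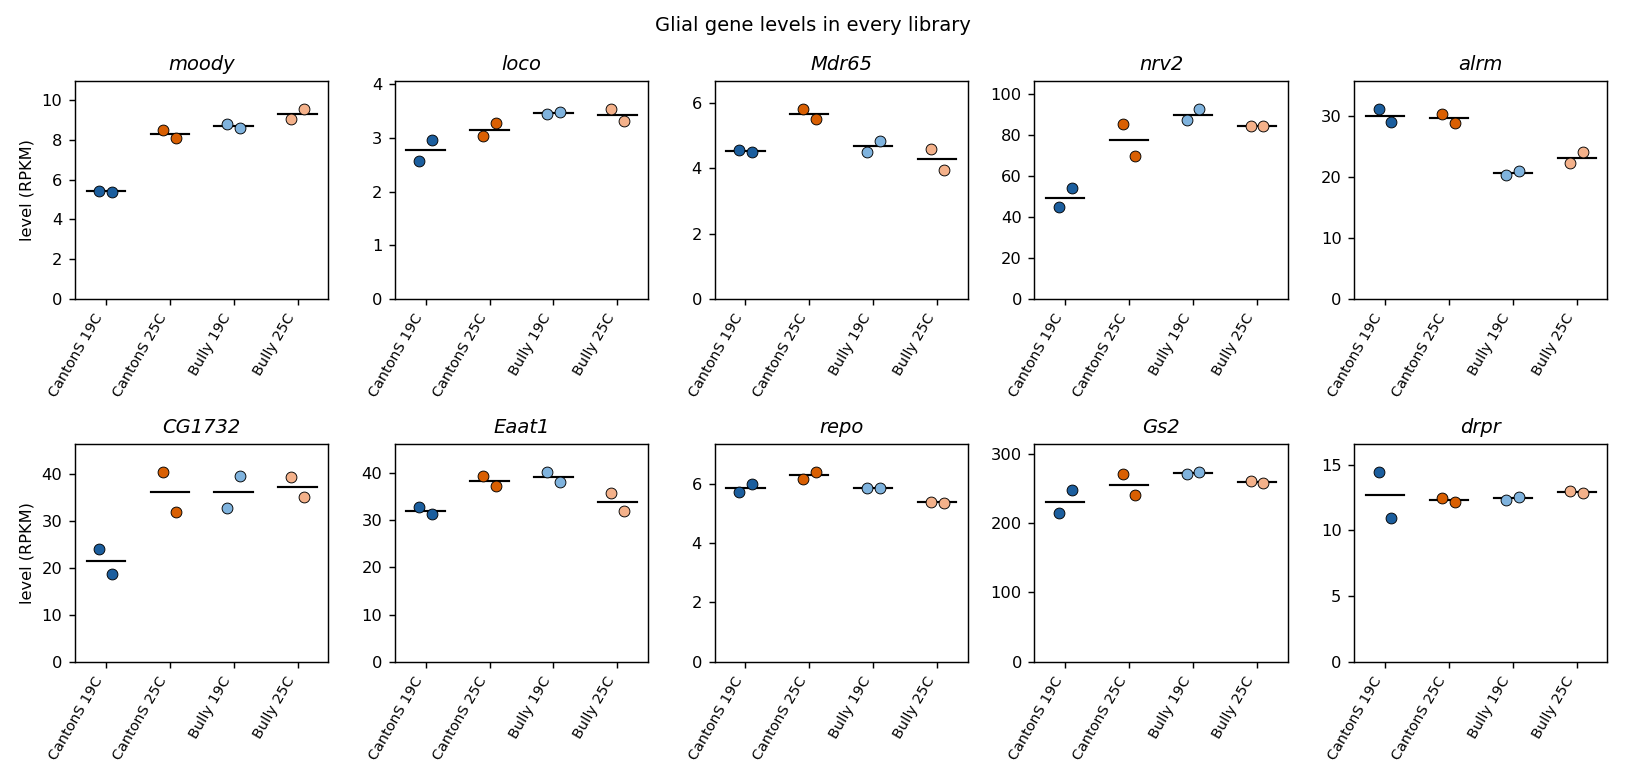
RPKM of each of the 10 glial genes in every library (points) by group, with the group mean as a line and each vertical axis starting at 0. In the panels for moody, nrv2 and CG1732 both CantonS 19C points lie below all 6 others, and in the panel for alrm all Bully points lie below all CantonS points.

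Among the barrier genes, moody and nrv2 were lowest in CantonS flies raised at 19C. moody encodes a G protein-coupled receptor that organises the septate junctions of subperineurial glia. Its level was 5.44 and 5.40 RPKM in CantonS 19C, 8.47 and 8.10 RPKM in CantonS 25C, 8.81 and 8.58 RPKM in Bully 19C, and 9.04 and 9.52 RPKM in Bully 25C. Both CantonS 19C libraries were thus below the other 6, and the replicates lay close together. At 19C moody was higher in Bully, at 8.69 ± 0.16 RPKM (SD, n = 2) against 5.42 ± 0.03 RPKM (limma on log2(RPKM + 0.5): log2 difference 0.64, SE 0.11, adjusted p = 0.0118). At 25C the log2 difference was 0.16 (95% interval -0.10 to 0.41, adjusted p = 0.512). In CantonS, moody was higher at 25C than at 19C (log2 difference 0.57, SE 0.11, adjusted p = 0.0411). This temperature call passed in 8 of 19 alternatives, over which the log2 difference ran from 0.52 to 0.69 and the adjusted p from 0.0205 to 0.224.

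The pump subunit nrv2 supports both the ion gradient of glia and the septate junction. It measured 44.7 and 54.2 RPKM in CantonS 19C, 85.6 and 69.7 RPKM in CantonS 25C, 87.3 and 92.5 RPKM in Bully 19C, and 84.7 and 84.3 RPKM in Bully 25C. The CantonS 19C libraries did not overlap with any other group. At 19C it was higher in Bully, 89.9 ± 3.70 RPKM against 49.4 ± 6.66 RPKM (limma log2 difference 0.86, SE 0.16, adjusted p = 0.0143). At 25C the log2 difference was 0.13 (95% interval -0.24 to 0.49, adjusted p = 0.727). Between temperatures in CantonS the log2 difference of nrv2 was 0.64 (SE 0.16) and did not pass (adjusted p = 0.0509).

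The regulator of G protein signalling loco acts in the same barrier pathway as moody, and Mdr65 pumps small foreign molecules out of the brain. loco was at 2.57 and 2.97 RPKM in CantonS 19C, 3.03 and 3.28 RPKM in CantonS 25C, 3.44 and 3.49 RPKM in Bully 19C, and 3.53 and 3.32 RPKM in Bully 25C. Its lowest libraries were again those of CantonS 19C, but neither line difference passed in limma. It was 0.28 at 19C (adjusted p = 0.149) and 0.10 at 25C (adjusted p = 0.705). With the length trend removed, the 19C line difference of loco was 0.05 (adjusted p = 0.865). Mdr65 had another pattern: it was at 4.56 and 4.51 RPKM in CantonS 19C, 5.79 and 5.52 RPKM in CantonS 25C, 4.50 and 4.82 RPKM in Bully 19C, and 4.59 and 3.96 RPKM in Bully 25C. CantonS 25C was the high group here. The line difference of Mdr65 at 25C was -0.37 (SE 0.12, adjusted p = 0.159) and at 19C 0.04 (adjusted p = 0.872). Within libraries, the ratio of moody to Mdr65, which a single scaling factor per library leaves unchanged, was 1.192 and 1.198 in CantonS 19C, 1.46 and 1.47 in CantonS 25C, and 1.78 to 2.41 in the Bully libraries.

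The astrocyte genes did not move as a group. alrm was low in Bully at both temperatures, at 20.3 and 20.9 RPKM in Bully 19C and 22.2 and 24.2 RPKM in Bully 25C, against 31.1 and 29.0 RPKM in CantonS 19C and 30.4 and 28.8 RPKM in CantonS 25C. Every Bully library was below every CantonS library. Averaged over temperatures alrm was lower in Bully (limma log2 difference -0.44, SE 0.09, adjusted p = 0.0172). At 19C it was lower as well (-0.53, SE 0.12, adjusted p = 0.0299), and at 25C the difference of -0.35 did not pass (95% interval -0.63 to -0.06, adjusted p = 0.199). Under other scalings the 19C call of alrm did not pass: after median-of-ratios rescaling it was -0.44 (adjusted p = 0.0648), after quantile normalization -0.39 (adjusted p = 0.0972) and with the length trend removed -0.42 (adjusted p = 0.0834). Its adjusted p at 19C ran from 0.0222 to 0.214 over the 19 alternatives. The averaged call passed under these 3 scalings.

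CG1732 went the other way from alrm at 19C. It was at 24.1 and 18.7 RPKM in CantonS 19C, 40.3 and 31.8 RPKM in CantonS 25C, 32.8 and 39.6 RPKM in Bully 19C, and 39.4 and 35.1 RPKM in Bully 25C. As for moody and nrv2, both CantonS 19C libraries were below the other 6. At 19C it was higher in Bully (36.2 ± 4.81 RPKM against 21.4 ± 3.81 RPKM, limma log2 difference 0.75, SE 0.18, adjusted p = 0.0362), and at 25C the log2 difference was 0.05 (95% interval -0.37 to 0.47, adjusted p = 0.912). Without CantonS 19C b the difference at 19C was 0.57 and did not pass (adjusted p = 0.122). Over the 19 alternatives its adjusted p at 19C ran from 0.0219 to 0.250. Between temperatures in CantonS the log2 difference of CG1732 was 0.74 (SE 0.18) and did not pass (adjusted p = 0.0509). The ratio of alrm to CG1732 was 1.29 and 1.55 in CantonS 19C, 0.753 and 0.905 in CantonS 25C, and 0.529 to 0.689 in Bully.

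Eaat1, which clears glutamate from synapses, was at 32.8 and 31.4 RPKM in CantonS 19C, 39.4 and 37.2 RPKM in CantonS 25C, 40.2 and 38.0 RPKM in Bully 19C, and 35.8 and 32.1 RPKM in Bully 25C. Bully was above CantonS at 19C and below it at 25C, without overlap in either case. Neither difference passed (log2 0.28, adjusted p = 0.175 at 19C; -0.17, adjusted p = 0.535 at 25C), nor did the test of their difference (interaction -0.46, SE 0.18, adjusted p = 0.181).

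None of the 3 broadly glial genes was called by limma in any of the 7 comparisons, with 0 of their results at an unadjusted p below 0.05. repo was at 5.72 and 5.98 RPKM in CantonS 19C, 6.16 and 6.38 RPKM in CantonS 25C, 5.850 and 5.853 RPKM in Bully 19C, and 5.37 and 5.36 RPKM in Bully 25C. At 19C the group means were nearly equal (log2 difference 0.00, 95% interval -0.24 to 0.25, adjusted p = 0.994), and at 25C the difference was -0.21 (95% interval -0.45 to 0.04, adjusted p = 0.375). Gs2 was at 214.4 and 247.4 RPKM in CantonS 19C, 271.3 and 240.6 RPKM in CantonS 25C, 271.7 and 273.9 RPKM in Bully 19C, and 260.4 and 258.0 RPKM in Bully 25C. The replicates of Gs2 lay further apart in CantonS than in Bully. Its line difference was 0.24 at 19C (95% interval -0.11 to 0.59, adjusted p = 0.310), and it passed only after quantile normalization (0.61, adjusted p = 0.0419). drpr, the receptor through which glia engulf dying axons, was at 14.4 and 10.9 RPKM in CantonS 19C, a wider spread than the 12.19 to 12.98 RPKM of the other 6 libraries. Its line difference was -0.01 at 19C (95% interval -0.34 to 0.32) and 0.07 at 25C (95% interval -0.27 to 0.40).

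**Figure D2:**
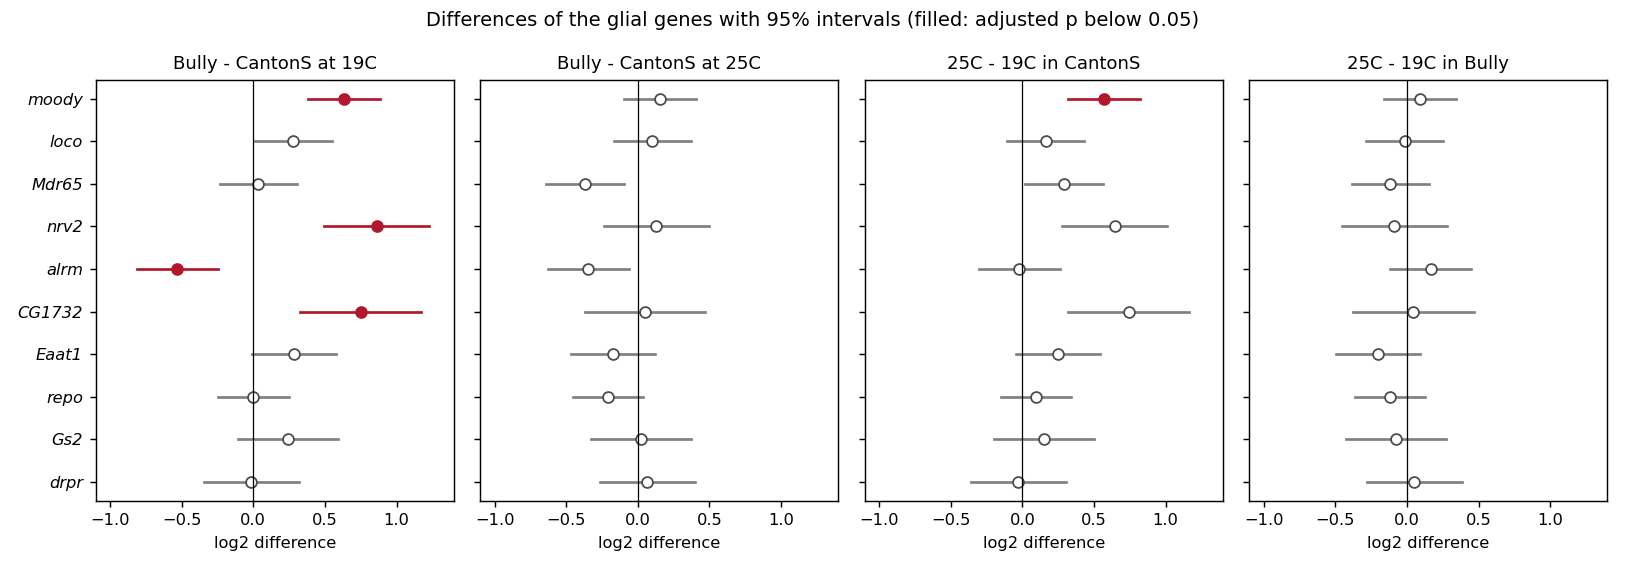
Log2 difference of log2(RPKM + 0.5) for each glial gene in 4 comparisons, with 95% intervals from limma; filled points passed at an adjusted p below 0.05. At 19C moody, nrv2 and CG1732 lie above 0 and alrm below 0, and at 25C and between temperatures in Bully no point is filled.

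Read against all genes, the line comparison at 19C called 3 glial genes higher and 1 lower in Bully, 4 of 10, where 11.5% of the 8480 genes tested were called (3.44% higher and 8.07% lower). The median log2 difference was 0.26 over the glial genes and -0.05 over all genes. Because the glial genes were chosen with earlier results of these data known, such comparisons with all genes are descriptive and not an independent test. Libraries of the lines did not overlap at 19C for 6 glial genes that were higher in Bully, against 23.1% of all genes, and for 1 that was lower, against 36.9%. All 4 calls were lost without Bully 19C a or without Bully 19C b, when 145 to 159 of all genes were called in place of 976. Without Bully 25C a or Bully 25C b the count was 2 of 10, and without CantonS 19C b it was 3.

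At 25C limma called 0 of 10 glial genes, against 3.03% of all genes (1.86% higher and 1.17% lower), with 2 at an unadjusted p below 0.05 (Mdr65 and alrm), where 16.9% of all genes were. The median log2 difference was 0.04 over the glial genes and 0.05 over all genes. Here 3 glial genes were higher in Bully without overlap (31.3% of all genes) and 4 were lower (20.4%). Averaged over temperatures 2 were called higher (moody, 0.40, SE 0.08, adjusted p = 0.0164; nrv2, 0.50, SE 0.11, adjusted p = 0.0301) and 1 lower (alrm), against 8.79% of all genes (4.38% higher and 4.41% lower). Leaving out Bully 25C a or either Bully 19C library brought this count to 0, and leaving out Bully 25C b or CantonS 25C b brought it to 1. All 4 Bully libraries were above all 4 CantonS libraries for moody and loco (7.05% of all genes) and below them for alrm (6.33%). For moody the lines overlapped after median-of-ratios rescaling and after quantile normalization, and for loco after median-of-ratios rescaling.

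Rearing temperature called 1 glial gene in CantonS, moody, against 6.42% of all genes (1.06% higher and 5.35% lower). All genes had a median log2 difference of -0.11 from 19C to 25C in CantonS, and the glial genes one of 0.21. The libraries of the temperatures did not overlap in CantonS for 7 glial genes that were higher at 25C (17.6% of all genes) and for 0 that were lower (37.9%). The share of all genes depends on scaling, since median-of-ratios rescaling moved the median of all genes in this comparison by 0.11. In Bully limma called 0 glial genes, against 0.0236% of all genes, with 0 at an unadjusted p below 0.05, where 3.21% of all genes were. There 3 glial genes were higher at 25C without overlap (26.1% of all genes) and 4 were lower (15.6%). Averaged over lines 0 glial genes passed (0.0825% of all genes, 0.0118% higher and 0.0708% lower), with 3 at an unadjusted p below 0.05, where 11.9% of all genes were.

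Whether the temperature difference depends on line was tested by the interaction, in which limma called 0 glial genes and 0% of all genes. At an unadjusted p below 0.05 there were 5 glial genes, moody, nrv2, CG1732, Mdr65 and Eaat1, and 23.8% of all genes. The interaction was -0.48 for moody (adjusted p = 0.127), -0.73 for nrv2 (adjusted p = 0.123), -0.70 for CG1732 (adjusted p = 0.165) and -0.40 for Mdr65 (adjusted p = 0.191). All 4 had the more positive line difference at 19C, but a dependence on temperature was not shown for any single gene. CantonS 19C was below the other 6 libraries without overlap for 4 glial genes, moody, nrv2, CG1732 and loco (9.63% of all genes), and above them for 0 (21.2%). For loco the line difference at 19C, 0.28 in the main fit, was 0.05 with the length trend removed.

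**Figure D3:**
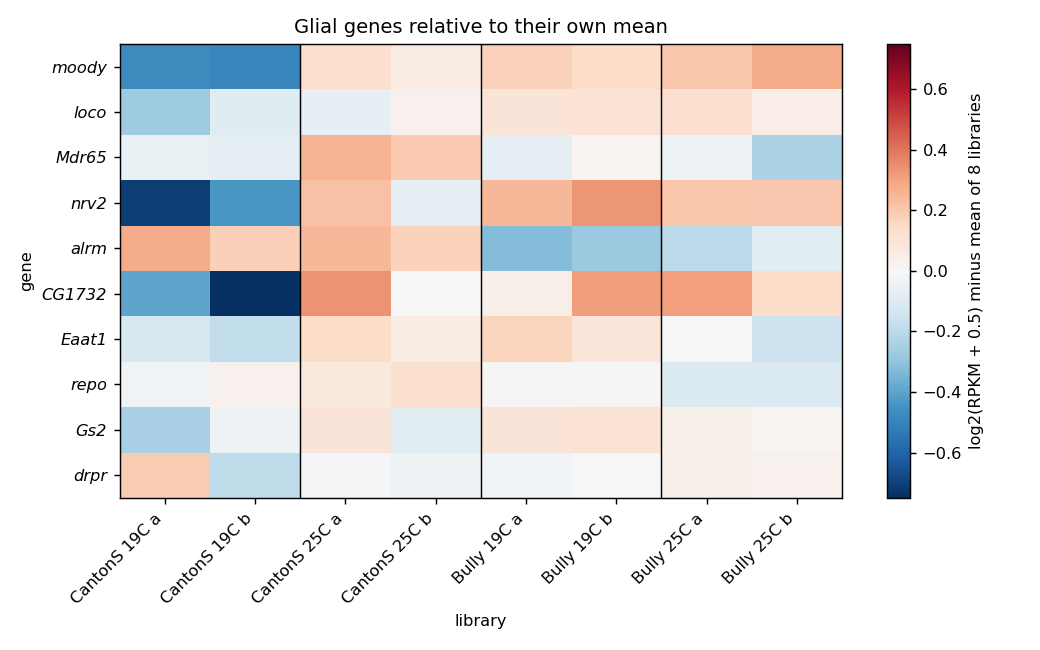
Colour shows log2(RPKM + 0.5) of each glial gene (rows) in each library (columns) minus the gene's own mean over the 8 libraries, red for higher and blue for lower. moody, nrv2 and CG1732 are blue in both CantonS 19C libraries, alrm is blue in the 4 Bully libraries, and repo stays near white.

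Ratios to repo within a library, a reference chosen after its values were seen, do not change with a single scaling factor per library, but quantile normalization and removal of the length trend can move them. The ratio of moody to repo was 0.903 and 0.952 in CantonS 19C, 1.27 and 1.38 in CantonS 25C, and 1.47 to 1.78 in Bully. For nrv2 over repo it was 7.83 and 9.06 in CantonS 19C and 10.9 to 15.8 in the other 6 libraries. For CG1732 over repo it was 3.13 and 4.21 against 4.99 to 7.34. CantonS 19C was thus lowest without overlap for these 3 ratios. It was also lowest for Eaat1 over repo (5.25 and 5.74 against 5.83 to 6.87), whose levels overlapped. For loco over repo, whose levels had separated CantonS 19C, the ratios overlapped (0.450 and 0.497 against 0.492 to 0.658). alrm over repo was 3.470 to 4.508 in Bully and 4.513 to 5.431 in CantonS, so the lines met at the edges of their ranges.

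The genes around these proteins were examined in lists by role, also chosen with earlier results of these data known. Over all genes at 19C, the background for each list, 3.44% were called higher, 8.07% lower and 31% had an unadjusted p below 0.05, and at 25C the shares were 1.86%, 1.17% and 16.9%. For temperature in CantonS they were 1.06%, 5.35% and 31.9%. Of 20 septate junction genes, which seal the barrier, 5 were higher and 1 lower in Bully at 19C, with a median log2 difference of 0.29 against -0.05 for all genes. Among the higher calls were Cont, a contactin of the junction core (0.72, SE 0.12, adjusted p = 0.0114), and cold, needed for junction assembly (0.62, adjusted p = 0.0208). Others were the adhesion protein Fas3 (0.52, adjusted p = 0.0222) and Gli, at tricellular corners (0.67, adjusted p = 0.0338). In the other direction, bou, another assembly factor, was at 6.16 and 6.40 RPKM in Bully 19C and 8.72 and 9.44 RPKM in CantonS 19C. In whole-head RNA these differences cannot be assigned to barrier glia. At 25C 1 was higher, cold (0.70, adjusted p = 0.0235). In CantonS, Cont (0.73, adjusted p = 0.0375) and Gli (0.67, adjusted p = 0.0492) were higher at 25C than at 19C, and bou was lower (-0.61, adjusted p = 0.0424). Of 9 genes of G protein signalling downstream of moody limma called 0 at 19C, with 2 at an unadjusted p below 0.05, G-ialpha65A (0.39, adjusted p = 0.106) and Gbeta13F (-0.43, adjusted p = 0.127). It called 0 of them in each of the other 6 comparisons too, with 0 to 3 at an unadjusted p below 0.05.

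Of 12 matched barrier transporter genes 2 were higher and 0 lower in Bully at 19C. Mdr50, an ABC transporter related to Mdr65, was higher by 2.47 (SE 0.16, adjusted p = 9.17e-05) and the citrate carrier Indy by 0.67 (adjusted p = 0.0489). At 25C Mdr50 was the single call (2.59, adjusted p = 9.21e-05), while Mdr65 itself passed in neither comparison. Mdr50 was at 3.45 to 4.96 RPKM in the Bully libraries and at 0.181 to 0.323 RPKM in the CantonS libraries. It passed the filter on mean RPKM through its Bully values. Its CantonS values lay below the pseudocount, so the size of its log2 differences depends on that setting. The list median was 0.10 at 19C and 0.04 at 25C.

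Among 12 genes of glutamate and GABA recycling 0 were higher and 2 lower in Bully at 19C, Gdh, glutamate dehydrogenase (-0.56, adjusted p = 0.0366), and Gs1, the mitochondrial glutamine synthetase (-0.57, adjusted p = 0.0373). The median of this list was -0.06. At 25C 1 was higher, Got2, an aspartate aminotransferase (0.99, adjusted p = 0.0210). Gs2, which carries out the same reaction as Gs1, was called in neither comparison.

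Engulfment genes that work with drpr were called in both directions. Of 21 tested, 2 were higher in Bully at 19C, the GTPase Rac2 (0.53, adjusted p = 0.0365) and the receptor kinase Pvr (0.64, adjusted p = 0.0365), and 2 were lower, the GTPases Rac1 (-0.57, adjusted p = 0.0279) and Rab5 (-0.96, adjusted p = 0.0423). At 25C limma called 0, with 2 at an unadjusted p below 0.05. Of 8 tested genes of glial fate and FGF and EGF signalling limma called 0 at 19C, with 3 at an unadjusted p below 0.05, among them the transcription factors pnt (0.40, adjusted p = 0.0754) and ttk (0.42, adjusted p = 0.0961). The other 3 listed genes were below the filter.

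Calls in the list of other glial subtypes went in both directions at 19C. Of 15 matched genes 4 were higher and 1 lower in Bully at 19C. ebony (e), the enzyme with which glia inactivate histamine and dopamine, was higher by 1.68 (SE 0.28, adjusted p = 0.00999), bnb by 0.91 (adjusted p = 0.00749) and Cyp4g15, a cytochrome P450 of cortex glia, by 0.72 (adjusted p = 0.0190). The lipocalin NLaz, made in fat body as well as the nervous system, was lower by a log2 difference of -1.78 (SE 0.23, adjusted p = 0.00328). At 25C NLaz was the only call of this list (-1.96, adjusted p = 0.00350). In CantonS e (1.70, adjusted p = 0.0375), axo (0.92, adjusted p = 0.0389) and bnb (0.66, adjusted p = 0.0429) were higher at 25C than at 19C. ebony also acts in the cuticle.

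Marker sums of other cell types followed different patterns from list to list, and only the hemocyte sum was lowest in both CantonS 19C libraries. The 8 hemocyte markers summed to 19.6 and 21.1 RPKM in CantonS 19C and to 30.6 to 50.2 RPKM in the other libraries. Of 5 tested, 3 were called higher in Bully at 19C, nimC1, Ppn and Hml. Pxn, nimC4 and eater lay higher in Bully at 19C without a call, the last ones below the filter. At 19C srp overlapped between the lines (4.23 and 3.67 RPKM in CantonS, 3.96 and 3.92 RPKM in Bully). He was higher in CantonS 19C (0.304 and 0.454 RPKM) than in Bully 19C (0.233 and 0.223 RPKM). The low sum thus does not hold for every marker. None of the 8 was at 0 in any library, and the lowest, He, averaged 0.268 RPKM. drpr, which hemocytes also express, was not called at 19C. Its CantonS 19C libraries, at 14.4 and 10.9 RPKM, lay above and below both Bully 19C libraries (12.3 and 12.6 RPKM). With that spread the missing call says little, and a hemocyte part in drpr was not tested. The 6 fat body markers summed to 776.2 and 791.4 RPKM in Bully 19C and 438.2 and 451.3 RPKM in Bully 25C. In CantonS they summed to 235.7 to 328.7 RPKM. Of 4 tested, 2 were higher in Bully at 19C. These were Lsp2 (366.2 and 397.7 against 85.2 and 113.4 RPKM) and Obp99b (196.94 and 195.02 against 35.99 and 31.86 RPKM). Yp1 (1.12 and 1.64 against 2.995 and 2.385 RPKM) and Yp2 (0.37 and 0.44 against 1.22 and 1.01 RPKM) lay lower at these low levels. Yp1 was not called, and Yp2 was below the filter and not tested. Rfabg overlapped between the lines at 19C. The higher sum thus reflects Lsp2 and Obp99b and not the fat body markers as a whole. In this list Fbp1 was at 0 in a library. Of the 7 neuronal markers limma called 0 at 19C, with 0 at an unadjusted p below 0.05, and a median log2 difference of 0.46. The 6 photoreceptor markers summed to 13549 and 13857 RPKM in Bully 25C and 9086 to 12150 RPKM elsewhere, and the 6 muscle markers to 237.0 to 323.0 RPKM, with TpnC4 at 0 in a library. The part of these other cells in the glial differences was not tested.

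**Figure D4:**
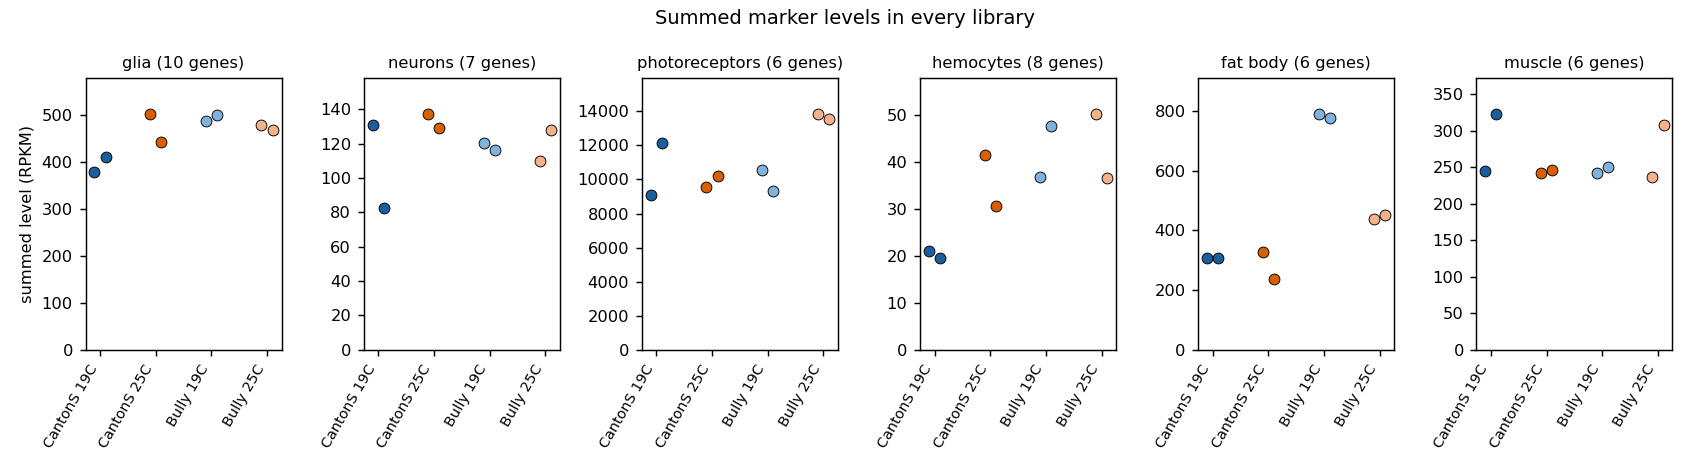
Summed RPKM of 6 marker lists in every library (points), by group, each axis starting at 0. Glial and hemocyte sums are lowest in CantonS 19C, the neuronal sum is low in 1 CantonS 19C library, and the fat body sum is highest in Bully 19C.

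By position the glial genes are spread over the genome: moody and Gs2 lie on X, nrv2 and Eaat1 on 2L, Mdr65 and drpr on 3L, loco, alrm and repo on 3R, and CG1732 on 4, in the BDGP6 annotation. They have 1 to 6 annotated transcripts. Exons of 4 of them overlap another annotated feature. repo shares 183 bases with CG7156 on the opposite strand, loco 1032 bases with an antisense RNA, drpr 115 bases with Oseg4 on the same strand, and CG1732 289 bases with a mobile element. Whether the counting used strand is not given in the sources used here, so reads in these overlaps cannot be assigned.

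Genes with patterns closest to 3 of the members were found by the mean absolute difference of centred log2 values over the 8 libraries. For repo these were Rgk3, CG5404 and dpr18, each at 0.03 to 0.04, against a median of 0.17 over all genes. For alrm they were CG14015, CG32817 and Tango11, at 0.05 to 0.07, against a median of 0.26. For moody they were tal-AA, tal-1A and tal-2A, at 0.05 against a median of 0.29, and these have identical values and so count as 1.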

How the data were processed

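Total RNA of whole heads was sequenced in 8 samples, 2 in each of 4 groups. The authors deposited RPKM values per gene, and the submitters' processing notes name TopHat2 2.0.4, edgeR 3.8.6 and the builds dm3 and BDGP5. No table of read counts was used. Column names give the group and no replicate number, and 0 other columns of sample values were present. The series describes the replicates as independent and biological, without naming cultures.

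The 8480 genes that averaged 1 RPKM or more were fitted with limma 3.58.1 in R 4.3.3 on log2(RPKM + 0.5), with 4 group means, all 8 libraries and a mean-variance trend, for 7 comparisons (residual degrees of freedom 4, prior 4.47). P-values were two-sided and adjusted by Benjamini-Hochberg over all genes tested in a comparison and a threshold of 0.05. The pseudocount shrinks differences of low genes. Effective library sizes came from the most common step between low values of genes with 1 annotated transcript, at BDGP6 exon lengths, and cover counting error only. On simulated data, limma recovered 73.5% of 200 genes changed 2-fold in the line comparison at 19C and called 4 unchanged genes. The simulated noise was normal and independent between genes and libraries, with spreads shuffled among genes. It held no library-wide shifts, so it does not measure the error rate in these data.

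The glial genes and the lists (134 of 137 symbols matched, older symbols through the reference tables) were chosen with earlier results of these data known. All 10 glial genes are named; of each list, up to 4 called genes by test statistic or the 2 smallest p were eligible, and genes named outside this rule were chosen after their values were seen. Alternatives were other pseudocounts (0.1 and 1), no filter, a filter of 5 RPKM, median-of-ratios rescaling, quantile normalization, a fit on the compared groups alone, no variance trend, a robust prior, an adjusted p below 0.1, removal of each library's trend with gene length, and leaving out each library.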

Additional observations from a re-analysis of the deposited data

Results flagged for a closer look

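Effects of rearing temperature went in opposite directions in the lines, with every library of each, for 3 of 10 glial genes, each higher at 25C in CantonS and lower at 25C in Bully. Over all genes 3.74% had this pattern and 14.9% had the opposite one, which 0 glial genes had. For Eaat1 both CantonS 25C libraries were above both CantonS 19C libraries and both Bully 25C libraries were below both Bully 19C libraries, and the line difference changed sign between temperatures in the same way, as it did in 3.89% of all genes (interaction -0.456, adjusted p = 0.181, and 0.0947 to 0.457 over the alternatives). For nrv2 the temperature difference was up in CantonS and down in Bully (interaction -0.733, adjusted p = 0.123, and 0.0631 to 0.377 over the alternatives). For repo it was up in CantonS and down in Bully as well (interaction -0.209, adjusted p = 0.418, and 0.211 to 0.673 over the alternatives). By limma the interaction passed for 0 of these 3, in the fit described and in the alternatives. Groups of 2 libraries are too small to look for single outlying samples.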

How the results depend on the processing

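No paired analysis was possible because the columns carry no replicate number. At 19C the count of glial genes called, 4 of 10, was 2 when the compared groups were fitted alone and 0 to 4 with single libraries left out. The averaged line count of 3 was 0 to 4 with single libraries left out. For temperature in CantonS the count of 1 was 3 with a pseudocount of 1, with a filter of 5 RPKM, without the variance trend, with a robust prior and at an adjusted p below 0.1, 0 without the filter, after median-of-ratios rescaling, quantile normalization, with the compared groups fitted alone and with the length trend removed, and 0 to 3 with single libraries left out. The counts of 0 at 25C, in Bully, for temperature averaged over lines and for the interaction were 0 in every alternative run. Of the results of single glial genes under alternatives, 1227 kept their side of the threshold, 44 lost a call and 15 gained one, and 0 called values changed sign. moody at 19C kept its call in 17 of 19 alternatives (log2 difference 0.57 to 0.72) and nrv2 in 17 of 19 (0.73 to 1.00), alrm in 11 of 19 (-0.58 to -0.39) and CG1732 in 12 of 19 (0.57 to 0.93). The alternative at an adjusted p below 0.1 rereads the same fit, so in these counts it keeps every call by construction. Leaving out a library leaves a group with 1 library, whose spread is taken from the others. Over all genes, calls at 19C ran from 145 to 1996 and in the interaction from 0 to 903 with single libraries left out. With 2 libraries per group and 4 residual degrees of freedom, small differences were not detectable.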
